A study of Mus musculus with 2 samples.

Results

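Transcripts that the GENCODE M21 annotation types as nonsense-mediated decay were examined by long-read RNA sequencing of mouse hippocampus. Members were all annotated transcript models of that type with at least 1 read in either library. Of 7186 such transcripts in the annotation, 719 had reads, and they belonged to 633 genes. They were 719 of the 24612 annotated models with reads. The tissue came from adult mice of strain B6NCrl, described in the labels as C57BL/6 male and 6 months old. The labels leave the separate field for sex without a value. There was 1 group of 2 libraries, replicate 1 and replicate 2, which the labels give separate biosamples and 1 donor identifier. No genotype, treatment or second condition is labelled, so a test between the libraries compares those libraries only, and the spread between them may be technical.

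Nonsense-mediated decay is the pathway that degrades messenger RNAs whose stop codon lies well upstream of an exon junction. Exon junction complexes left on the RNA by splicing stay in place beyond a premature stop, and there they help to recruit the helicase UPF1 and its partners. Many genes make such transcripts by alternative splicing, and splicing factors are known for using them to limit their own level. The type in the annotation is a prediction from the position of the stop codon, not a measurement of decay. Steady-state reads cannot tell how fast a transcript was made from how fast it was lost.

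The sequences that carry the annotated premature stops are shown first, for 8 members that were among the most abundant. Each begins with the last 24 bases shared with the leading coding transcript of its gene, the coding transcript with most reads, and ends with the stop codon in capitals. Beneath each member stands the same length of the coding transcript from the same 24 bases. Sequences are of GENCODE M21 on build mm10, spliced and written 5′ to 3′ on the strand of the gene. The changes shown are a moved splice site (Cyth2-203, Smdt1-204 and Tmem234-210), a skipped exon (Rnf114-203) and an added exon (Nt5c3-208, Yaf2-202, Rbm7-204 and Syt16-201). Syt16-201 also has a 5′ splice site moved 45 bases upstream in the exon after the added one.
Cyth2-203: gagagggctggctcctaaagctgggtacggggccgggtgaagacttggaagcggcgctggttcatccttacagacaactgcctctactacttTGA
Cyth2-202: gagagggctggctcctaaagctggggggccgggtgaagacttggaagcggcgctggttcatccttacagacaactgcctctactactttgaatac
Rnf114-203: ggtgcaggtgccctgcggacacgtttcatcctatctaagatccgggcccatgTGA
Rnf114-201: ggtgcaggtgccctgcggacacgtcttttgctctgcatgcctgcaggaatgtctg
Smdt1-204: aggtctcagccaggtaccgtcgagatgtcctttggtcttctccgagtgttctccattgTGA
Smdt1-201: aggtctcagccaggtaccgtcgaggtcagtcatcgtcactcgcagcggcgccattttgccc
Tmem234-210: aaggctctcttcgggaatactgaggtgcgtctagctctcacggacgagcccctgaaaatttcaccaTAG
Tmem234-201: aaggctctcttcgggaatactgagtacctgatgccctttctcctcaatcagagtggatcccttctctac
Nt5c3-208: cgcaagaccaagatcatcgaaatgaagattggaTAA
Nt5c3-201: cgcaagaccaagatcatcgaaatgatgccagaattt
Yaf2-202: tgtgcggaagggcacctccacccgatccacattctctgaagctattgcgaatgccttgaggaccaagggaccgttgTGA
Yaf2-201: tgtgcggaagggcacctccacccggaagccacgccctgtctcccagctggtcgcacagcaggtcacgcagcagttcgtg
Syt16-201: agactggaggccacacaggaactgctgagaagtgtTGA
Syt16-203: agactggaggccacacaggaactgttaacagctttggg
Rbm7-204: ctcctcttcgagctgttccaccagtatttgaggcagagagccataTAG
Rbm7-201: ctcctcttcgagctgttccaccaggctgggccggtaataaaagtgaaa

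In Cyth2-203 the 5′ splice site lies 4 bases further into the intron, and the stop codon that follows is made of letters that Cyth2-202 also has, read there in another frame. Its stop codon is at chr7:45808383-45808385 on the minus strand. Rnf114-203 lacks an exon of 151 bases (chr2:167507047-167507197, plus strand), and the frame runs 31 bases past the skipped exon to its stop at chr2:167510904-167510906. Smdt1-204 uses a 5′ splice site 49 bases upstream and stops at chr15:82347934-82347936 on the plus strand. Tmem234-210 keeps 109 bases that the coding transcript splices out, and stops within them at chr4:129601177-129601179 on the plus strand. The added exons are 55 bases long in Nt5c3-208, with the stop at chr6:56897818-56897820, and 70 bases in Yaf2-202, with the stop at chr15:93317554-93317556, both on the minus strand. Rbm7-204 adds 105 bases and stops at chr9:48494364-48494366 on the minus strand. The exon added in Syt16-201 is 821 bases long and its stop is at chr12:74162067-74162069 on the plus strand, 14 bases past the point where it leaves Syt16-203.

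Replicate 1 held 1330153 reads and replicate 2 held 1366252, of which 66.3% and 70.1% lay on annotated transcripts. Levels are in CPM, reads scaled to a library of 1000000, and 1 read counted as 0.752 CPM in replicate 1 and as 0.732 CPM in replicate 2. CPM is not divided by length unless stated. All 31 markers fixed for hippocampal neurons and glia had reads in both libraries, with sums of 13587 and 16504 CPM. The 8 choroid plexus markers had a sum of 13942 CPM in replicate 1 but of 313 CPM in replicate 2, where 2 of them (Kcne2 and Otx2) were at 0. No member read lay on any of these marker genes. Whether the choroid plexus difference has a part in the values below was not tested.

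Annotated decay transcripts were a small share of the transcriptome. They held 2523 reads (1897 CPM) in replicate 1 and 2880 reads (2108 CPM) in replicate 2. Their share of the reads on annotated transcripts was 0.286% (exact Clopper-Pearson 95% interval 0.275 to 0.298) in replicate 1 and 0.301% (0.290 to 0.312) in replicate 2, a mean of 0.293% ± 0.0102 (SD, n = 2). The shares did not differ beyond counting error (two-sided Fisher's exact test, p = 0.0719). Transcripts typed as retained intron held 1.02% and 0.959% of these reads, and protein-coding transcripts 90.7% and 91.2%. Because no molecular identifiers are described, all intervals and floors given here reflect counting error alone.

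Most members had few reads, and a small number held much of the total. The median was 2 reads over both libraries, 246 members (34.2%) rested on a single read, and 6467 annotated decay transcripts had none. At least 10 reads fell on 131 members, at least 50 on 18 and at least 100 on 6. The 10 members with most reads held 25.3% of all member reads, and the 50 with most held 49.9%. There were 526 members with reads in replicate 1 and 565 in replicate 2, and 372 were shared. Those seen in a single library, 154 in replicate 1 and 193 in replicate 2, had at most 6 reads.

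**Figure D1:**
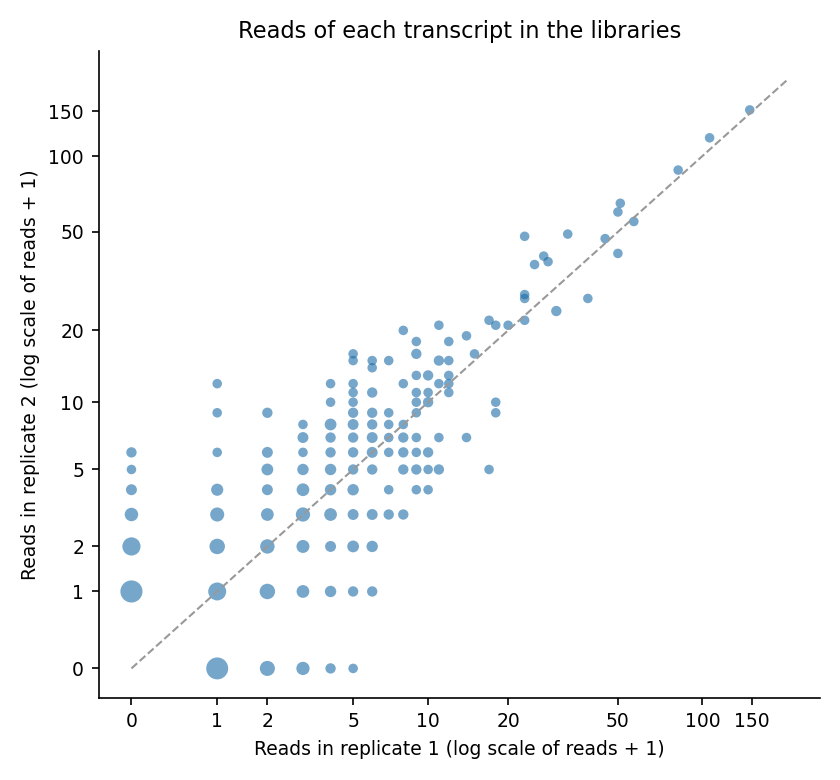
Reads of each of the 719 members in replicate 1 (horizontal axis) and replicate 2 (vertical axis), on log scales of reads + 1 labelled in reads. A larger point stands for more members with the same pair of counts, the dashed line marks equal counts, and the members seen in 1 library lie on the axes at 0, with at most 6 reads.

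The most abundant member came from a myelin gene. Mobp encodes a structural protein of central myelin made by oligodendrocytes (ENSMUSG00000032517.16, chromosome 9, 120149707 to 120181484). Mobp-204 had 147 reads in replicate 1 and 152 in replicate 2, or 110.9 ± 0.523 CPM (SD, n = 2). It held 85.5% (79.3 to 90.4) and 84.9% (78.8 to 89.8) of the gene's reads on annotated transcripts, so the libraries overlapped almost fully. The leading coding transcript, Mobp-201, had 18 and 17 reads. The stop codon of Mobp-204 is also that of an annotated coding transcript, and 2 exon junctions follow it, the last of them 264 bases past the stop. Over reads of every class of model in the gene, its share was 63.1% and 55.1%.

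Cyth2 and Rnf114 followed, and in both genes the decay transcript outnumbered the coding transcripts in each library. Cyth2, an exchange factor that activates ARF GTPases (ENSMUSG00000003269.17, chromosome 7, 45806637 to 45814581), had 106 and 118 reads on Cyth2-203 (83.0 ± 4.72 CPM) against 53 and 41 on Cyth2-202. The shares of Cyth2-203 were 62.7% (54.96 to 70.03) and 72.4% (64.9 to 79.1). Counting reads of every class, the intron that only Cyth2-203 has in the annotation (chr7:45808450-45810122) was in 120 and 129 reads, and the intron of Cyth2-202 that begins 4 bases from it was in 58 and 45. A 3-base exon that the annotated transcript Cyth2-209 has within this intron (chr7:45808730-45808732) was in 0 reads of either library. The aligner is not named, and whether its handling of so short an exon has a part in the counts of Cyth2-203, and so in its lead over the coding transcripts, was not tested. Rnf114, a ubiquitin ligase with a RING domain (ENSMUSG00000006418.17, chromosome 2, 167492645 to 167516173), had 82 and 88 reads on Rnf114-203 (63.0 ± 1.95 CPM) against 40 and 54 on Rnf114-201. The shares of Rnf114-203, which skips the exon described above, were 67.2% (58.1 to 75.4) and 62.0% (53.5 to 70.0).

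**Figure D2:**
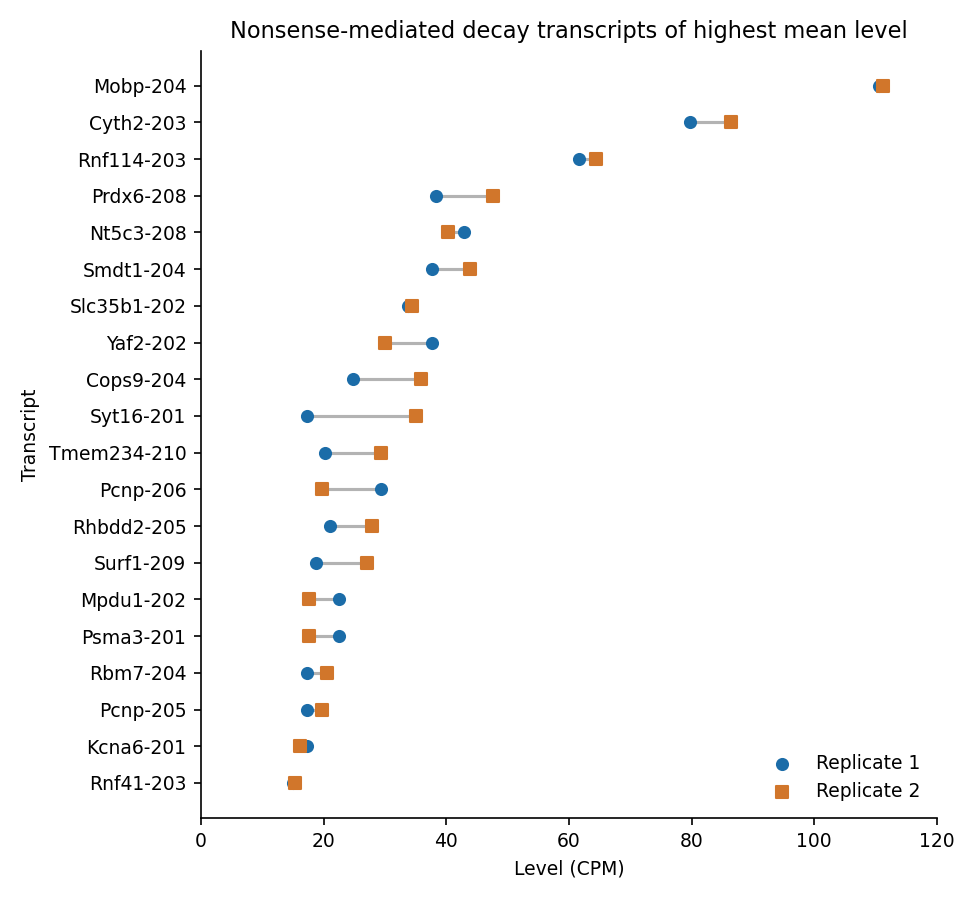
Level in CPM of the 20 members of highest mean CPM, in replicate 1 (circles) and replicate 2 (squares), with a grey line joining the pair. Mobp-204, Cyth2-203 and Rnf114-203 lie above 60 CPM in both libraries, and Syt16-201 has the widest gap, with 17.3 and 35.1 CPM.

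Enzymes, transporters and a subunit of a mitochondrial channel made up the next members. Prdx6, a peroxiredoxin that removes peroxides, had 51 and 65 reads on Prdx6-208 (43.0 ± 6.53 CPM), which skips 157 bases of exon. That member was high in level but low in share, with 2.96% and 3.87% of its gene, beside 1631 and 1582 reads on Prdx6-202. Nt5c3, a nucleotidase acting on pyrimidine nucleotides, had 57 and 55 reads on Nt5c3-208 (41.6 ± 1.84 CPM), or 42.2% and 34.0% of the gene. Smdt1, a subunit of the mitochondrial calcium uniporter, had 50 and 60 reads on Smdt1-204 (40.8 ± 4.47 CPM), or 11.9% and 13.7%. Slc35b1, a nucleotide transporter of the endoplasmic reticulum, had 45 and 47 reads on Slc35b1-202 (34.1 ± 0.403 CPM), or 38.5% and 41.2%. Among these 4 members the shares thus ran from a few percent to about 40%, while the levels lay within 34 to 43 CPM.

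Nuclear and signalling proteins followed at somewhat lower levels. Yaf2, a partner of Polycomb group complexes, had 50 and 41 reads on Yaf2-202 (33.8 ± 5.36 CPM), or 41.0% and 31.8% of the gene. Cops9, a subunit of the COP9 signalosome that acts on cullin ubiquitin ligases, had 33 and 49 reads on Cops9-204 (30.3 ± 7.82 CPM), or 11.3% and 16.2%. Rnf41, another RING ubiquitin ligase, had 20 and 21 reads on Rnf41-203 (15.2 ± 0.237 CPM), which skips 272 bases, or 33.9% and 25.6%. Rbm7, an RNA-binding protein of a nuclear exosome targeting complex, had 23 and 28 reads on Rbm7-204 (18.9 ± 2.27 CPM), or 36.5% and 40.6%. In all 4 genes the intervals of the shares in the libraries overlapped.

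The nuclear protein gene Pcnp had a pair of decay transcripts that use different 3′ splice sites. Pcnp-206 had 39 and 27 reads (24.5 ± 6.76 CPM), and Pcnp-205 had 23 and 27 (18.5 ± 1.75 CPM). Together they held 40.3% and 48.2% of the gene's reads on annotated transcripts. Over all classes of reads the shares of Pcnp-206 were 11.2% and 10.3% and those of Pcnp-205 were 6.59% and 10.3%, so a large part of the gene's reads lay on other classes. Rhbdd2, of the rhomboid family of membrane proteins, had 28 and 38 reads on Rhbdd2-205, with an added exon of 120 bases. Surf1, needed to assemble cytochrome c oxidase, had 25 and 37 reads on Surf1-209, or 39.7% and 49.3%. Over reads of every class the shares of Surf1-209 were 21.6% and 28.9%. Mpdu1, which takes part in the use of dolichol-linked mannose, and Psma3, a subunit of the proteasome core, each had 30 and 24 reads on 1 member. The shares were 29.1% and 24.2% for Mpdu1-202 and 8.04% and 7.41% for Psma3-201.

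Genes of neuronal signalling supplied a pair of the abundant members. Kcna6, a voltage-gated potassium channel subunit (ENSMUSG00000038077.7, chromosome 6, 126708329 to 126740674), had 23 and 22 reads on Kcna6-201 (16.7 ± 0.841 CPM). These were 95.8% (78.9 to 99.9) and 81.5% (61.9 to 93.7) of the gene's reads on annotated transcripts. Its stop codon is that of the full channel protein, and a single exon junction lies 3120 bases past it. An annotated coding transcript, Kcna6-204, has the same chain of introns, so the reads of Kcna6-201 can be assigned to either type. Syt16, of the synaptotagmin family (ENSMUSG00000044912.10, chromosome 12, 73997661 to 74273267), had 23 and 48 reads on Syt16-201 (26.2 ± 12.6 CPM) against 20 and 27 on Syt16-203. Its shares were 53.5% (37.7 to 68.8) and 64.0% (52.1 to 74.8), but 16.1% and 26.1% over reads of every class. In addition, 72 and 87 reads of other classes held a junction of Syt16-201 that no annotated transcript of another type has.

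Divided by transcript length, the order of these levels changed. Smdt1-204, of 597 bases, had a mean of 68.3 CPM per kilobase, Cyth2-203 had 54.9, Cops9-204 had 46.7 and Mobp-204 had 42.5 CPM per kilobase. Kcna6-201, of 5827 bases, had 2.87 CPM per kilobase. Dividing by length raises short transcripts relative to long ones, and whether these long-read counts rise with transcript length was not tested. CPM remains the level used elsewhere.

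Shares of the gene were examined for the 411 members whose gene had at least 20 reads on annotated transcripts in each library. The median member held 2.29% of its gene (quartiles 0.935% and 6.57%), over both libraries summed. This median depended on the minimum, being 0.945% in genes with at least 100 such reads in each library and 6.06% with no minimum, and it was 3.80% from replicate 1 alone. Under 1% was held by 112 members, 1% to under 10% by 229, 10% to under 50% by 65 and over 50% by 5. The 5 members over 50% were Kcna6-201, Mobp-204, Cyth2-203, Rnf114-203 and Syt16-201, and each was over 50% in both libraries. They were followed by Surf1-209 with 44.9%, 2310009B15Rik-202 with 40.7% and 39.5% in the libraries, Slc35b1-202 with 39.8%, Taf1b-202 with 38.9% and Rbm7-204 with 38.6%. Taf1b encodes a factor of RNA polymerase I transcription, and its member had 10 and 11 reads. With all decay transcripts of a gene summed, 68 of the 359 genes exceeded 10%. These shares cover only transcripts with at least 1 read, which leaves out every decay transcript too rare to be seen.

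**Figure D3:**
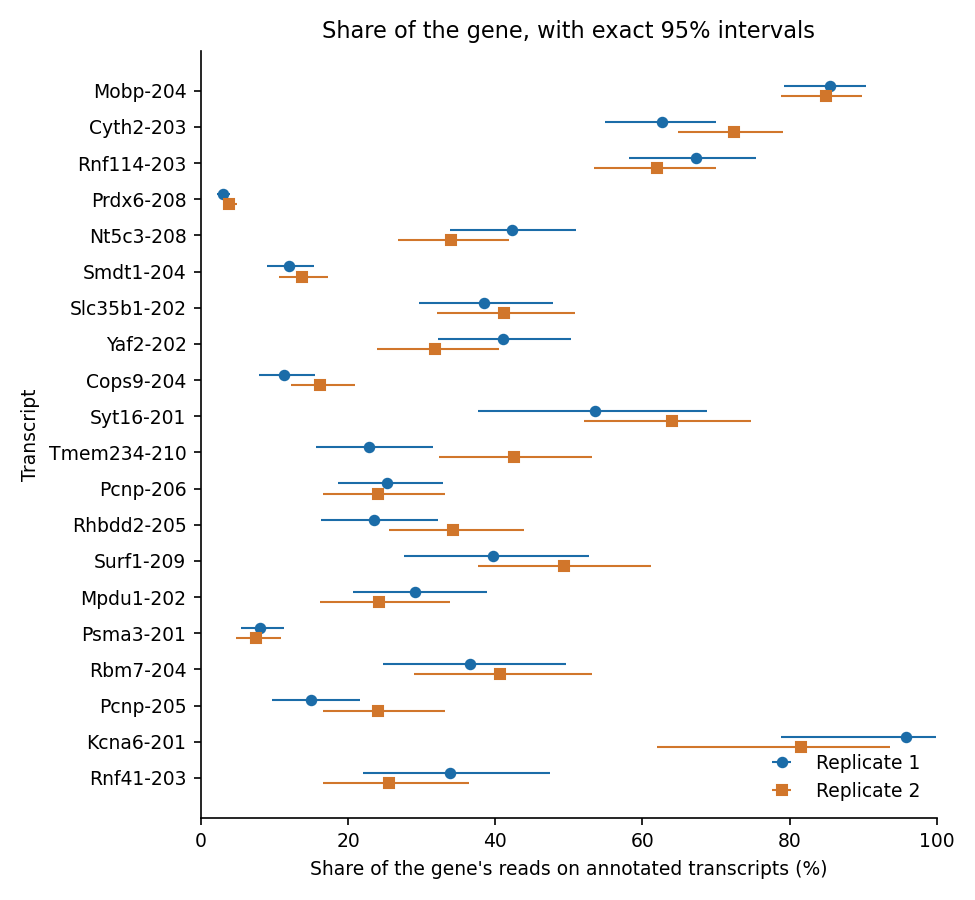
Share of the gene's reads on annotated transcripts held by the same 20 members, in replicate 1 (circles) and replicate 2 (squares), with exact Clopper-Pearson 95% intervals. The intervals of the libraries overlap for all of them except Tmem234-210, where that of replicate 1 ends at 31.5% and that of replicate 2 begins at 32.4%.

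In shallower genes the shares were less certain. Of the 308 members there, 17 had at least 10 reads, and 12 of these held over 50% of the gene's reads on annotated transcripts. Hyi-202, from a gene for a putative hydroxypyruvate isomerase, had 12 and 18 reads and was the only annotated transcript of its gene with reads. Srsf9-205 had 9 of 14 reads in replicate 1 and 18 of 24 in replicate 2, but 29.0% and 40.9% over reads of every class.

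Compared with the leading coding transcript, most members differed at a single kind of splicing event. Of the 689 members with a coding transcript that had reads, 260 had a moved splice site as the only kind of difference, 187 had skipped exons and 122 had added exons. Another 54 had more than 1 kind, 32 differed in their end exons only, 22 spliced out an intron within a coding transcript's exon and 12 kept an intron. Moved splice sites also had most of the reads, 1066 and 1181, followed by skipped exons with 610 and 706.

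**Figure D4:**
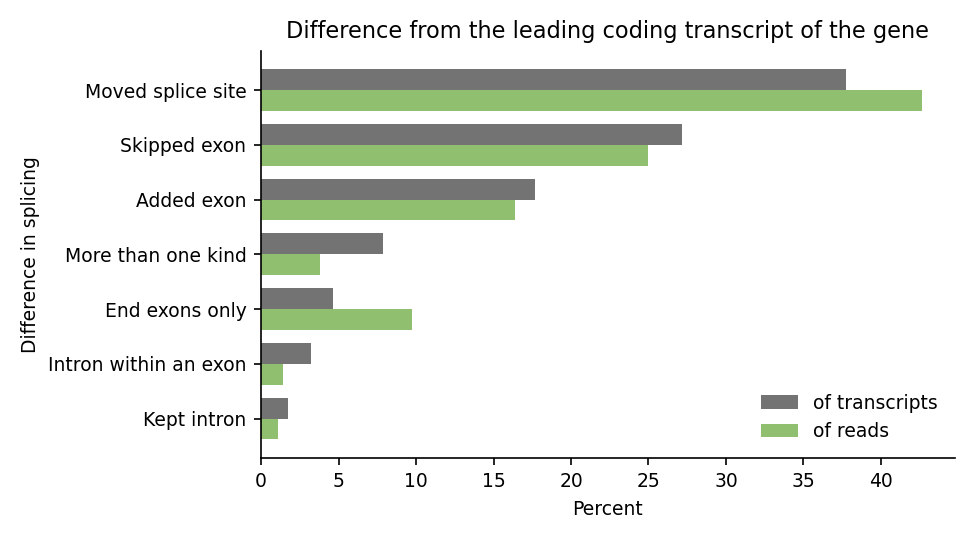
Percent of the 689 members (grey) and of their reads (green) by how the member differs from the leading coding transcript of its gene. Moved splice sites made up 37.7% of the members and 42.6% of the reads.

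The length of a skipped exon was seldom a multiple of 3. Among the 165 members with a single skipped exon, its length was a multiple of 3 in 2 and not in 163, with a median of 107 bases. Among the 251 with a single moved splice site, the shift was a multiple of 3 in 28 and not in 223. Added exons were multiples of 3 in length more often, in 33 of 112 members with a single such exon, and an added exon can hold the stop codon itself. The moved sites were divided evenly, 133 being 5′ and 118 being 3′ splice sites, and 130 lengthened and 121 shortened the exon. Shifts of 10 bases or fewer were found in 39 members with 594 reads, among them Cyth2-203 with 4 bases and Psma3-201 with 5 bases. Such frame changes are part of what the annotation used to assign the type, so these counts describe the members and test nothing.

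The annotated stop codon lay in different places relative to the coding transcripts. In 452 members (62.9%) it fell within an exon of a coding transcript, at a place where no coding transcript of the gene stops. These members held 64.2% of the member reads. Whether that part of the exon is coding, and in which frame, was not checked for this count. In 109 members it lay in an added exon, in 91 in an extended exon or kept intron, and in 60 the stop was also that of a coding transcript. The median share of the gene was 2.75% for the first of these classes, 1.89% for added exons, 1.63% for extended exons or kept introns and 4.01% for coding stops. In the last class belong Mobp-204, Kcna6-201, Taf1b-202 and Hnrnpa1-203. The remaining 7 members, with 13 reads, came from 7 genes without a coding transcript.

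The distance from stop codon to last junction differed between members and coding transcripts. Because the annotation assigns the type from the position of the stop codon, this contrast was built into the choice of members and tests nothing. The last junction was more than 50 bases past the stop in 714 of 719 members (99.3%). Among protein-coding transcripts with reads and an annotated stop codon it was so in 49 of 16858 (0.291%), of which 16335 are spliced and can have a junction. The median distance in members was 310 bases (quartiles 149 and 626, range 29 to 3808). In 183 members 1 junction lay past the stop, and in 536 there were at least 2. The 5 members at 50 bases or fewer were Tomm22-203, Ubl5-205, Cdipt-203, Thap12-204 and Xaf1-201, with 49, 38, 50, 50 and 29 bases. They are named after their values were seen.

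**Figure D5:**
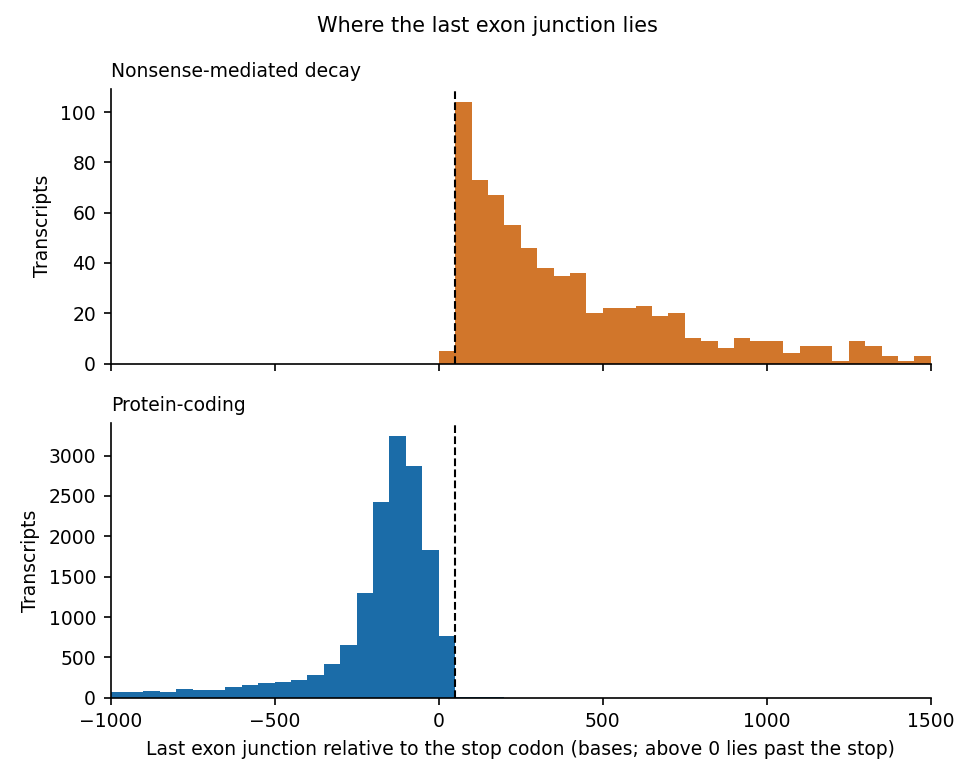
Number of members (upper panel) and of protein-coding transcripts with reads (lower panel) by the position of the last exon junction relative to the stop codon, in bins of 50 bases, with a dashed line at 50 bases. The axis covers 680 of 719 members and 15337 of 16335 spliced coding transcripts with a stop codon, and the members begin almost entirely to the right of the line.

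Members tended to be shorter than the coding transcript beside them. Their median length was 1592 bases with 7 exons, and 538 of 689 were shorter than the leading coding transcript, by a median of 317 bases over all 689 pairs. A start codon was shared with a coding transcript in 641 members, while 66 had a coding sequence marked as incomplete at its start. In 31 members the reads exceeded those of the leading coding transcript. A junction found in no annotated transcript of another type was present in 589 members. For 318 of these, reads of other classes also held such a junction, 1168 in replicate 1 and 1339 in replicate 2, and these reads are not in the members' counts. The chain of introns was shared with an annotated transcript of another type in 10 members, which had 87 reads.

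Genes for splicing proteins were measured with lists chosen for this purpose. In the list of SR proteins, which bind exons and promote their inclusion, 4 of the 11 detected genes that have an annotated decay transcript had reads on it, with 5 members. Srsf9-205 was the most abundant, followed by Srsf3-201 with 8 and 5 reads (2.36% and 1.77% of the gene), whose stop lies in an added exon of 456 bases. Srsf2-202 had 0 and 2 reads. The list held 2.45% (1.48 to 3.81) and 3.45% (2.28 to 4.98) of its genes' reads on annotated transcripts, beside 0.286% and 0.301% for all annotated transcripts. Srsf9-205 gave a large part of this, and without Srsf9 the list held 1.32% (0.633 to 2.41) and 1.19% (0.544 to 2.24). The 0.286% and 0.301% also cover genes without an annotated decay transcript. Of the 13 detected SR genes 11 have one, against 1252 of the 4541 genes with at least 20 annotated reads in each library. Among those 1252, decay transcripts held 2.39% in genes with 100 to under 300 annotated reads over both libraries. The list was not matched to such genes. Over the list's 4 members in deeper genes the median share was 1.55%, beside 2.29% over all 411. In the list of hnRNP and other splicing proteins, 23 of 62 such genes had a member, with 72 and 99 reads in sum. These were 0.936% (0.733 to 1.18) and 1.16% (0.941 to 1.41) of the list, or 0.642% and 0.836% without Rbm7. The median share was 3.19% over the 14 members in deeper genes, beside 2.29% over all 411. Hnrnpa1-203, from the gene of an abundant hnRNP, had 12 and 15 reads, and Snrpa1-201, from a U2 snRNP protein gene, had 5 and 10.

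Genes of the decay pathway itself had too few reads to set their share apart from that of all annotated transcripts. Among its factors and those of the exon junction complex, 17 genes had reads, 2 of them have an annotated decay transcript, and Magohb-203 had 1 read in replicate 1 and 0 in replicate 2. The list held 0.127% (0.00321 to 0.705) of its genes' reads on annotated transcripts in replicate 1. In replicate 2 the share of 0 allows up to 0.451% by the exact 95% interval. Both intervals include the 0.286% and 0.301% of all annotated transcripts.

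Genes of the ribosome and the respiratory chain had low median shares, 0.316% and 1.32% over 13 members each, beside 2.29% over all 411. Median shares fell with gene depth, from 4.59% at 40 to under 100 annotated reads over both libraries to 0.175% at 1000 or more. The ribosomal list held 47953 and 52538 annotated reads over 89 genes, and the respiratory list 45010 and 44645 over 108. The medians of the lists are not matched for depth, and whether they are particular to these genes was not tested. Cytosolic ribosomal protein genes had 13 members in 10 of 20 genes, with 42 and 37 reads, which were 0.0876% and 0.0704% of the list, or 0.0510% and 0.0543% without Rps19. The highest of them, Rps19-205, had 18 and 9 reads (2.11% and 0.946%), and its stop lies in an added exon of 81 bases. Rpl10a-203 had 3 reads in replicate 1 and 7 in replicate 2. Respiratory chain and ATP synthase genes had 13 members in 12 of 23 genes, at 0.142% and 0.172% of the list, and 3 subunits of complex I led. Ndufs4-202, which skips an exon of 79 bases, had 9 and 16 reads, Ndufs6-202 had 11 and 12, and Ndufb8-205 had 10 and 13. The translation factor list held 2 members in 12 genes, Eif2a-207 with 10 and 10 reads (12.7% and 9.90%) and Eif4a2-210 with 7 and 3 (0.458% and 0.182%).

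Ubiquitin and proteasome genes had 10 members in 9 of 43 genes, at 0.258% and 0.185% of the list, with a median share of 0.447%. Without Psma3 the list held 0.0383% and 0.0446%. Psma3-201 led, with Psma3-206 (11 and 5 reads) and Psmf1-206 (3 and 4), the last from the gene of a proteasome inhibitor. Synaptic and ion channel genes had 12 members in 10 of 37 genes, at 0.664% (0.526 to 0.827) and 0.671% (0.548 to 0.814) of the list, most of it on Syt16-201 and Kcna6-201, and their median share was 6.56% over 6 members in deeper genes. Without Syt16 the list held 0.473% and 0.357%. Snapin-204, from the gene of a SNARE-associated protein, had 12 and 12 reads. Rab and other small GTPase genes had 9 members in 7 of 31 genes, with 12 and 12 reads, led by Arfrp1-212 with 5 and 7. Rab11b-204 and Rab3il1-207 had 1 read in each library.

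Most genes had a single member, 564 of 633, and 69 had more. Tmem234, a gene for a membrane protein (ENSMUSG00000028797.20, chromosome 4, 129600668 to 129624059), had the most, with 5 members. They summed to 48 of 118 reads in replicate 1 (40.7%) and 50 of 94 in replicate 2 (53.2%). Tmem234-210 was the main one, with 27 and 40 reads against 69 and 39 for the coding Tmem234-201.

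Decay transcripts were seen more often in genes with more reads. In the 4541 genes with at least 20 reads on annotated transcripts in each library, 411 of 1988 annotated decay transcripts had reads (20.7%), against 24.6% of retained intron and 57.1% of protein-coding transcripts. In genes with 40 to under 100 such reads over both libraries 16.4% were seen, and in genes with 1000 or more 28.3%. Of the 4541 genes, 1252 have an annotated decay transcript, and only those enter the next shares. In them the share of annotated reads on decay transcripts was 2.14% in genes with 40 to under 100 reads and 2.39% with 100 to under 300. It was 1.40% with 300 to under 1000 and 0.152% with 1000 or more. Decay transcripts of transcript support level 1, the best support in the annotation, were seen in 176 of 444 cases (39.6%), and those of level 5, the weakest, in 83 of 712 (11.7%). Of the 1577 at 0, the floor of 3 reads allows a median share of up to 2.52% of the gene, and a share under 1% in 299.

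No member differed between the libraries after adjustment. In level, Fisher's exact test called 0 of 131 members with at least 10 reads, at 0.05 after Benjamini-Hochberg adjustment. Of the 9781 annotated models tested it called 5.34%, made up of 1.36% higher and 3.98% lower in replicate 1. At least 20 reads fell on 54 of the 131 members but on 7241 of the 9781 models. The members thus had less power to be called, and the 0 does not show that they were more stable. At an unadjusted p under 0.05 there were 7 of the 131 members. With edgeR's exact test 0 members were called, with 3 unadjusted, and 22 of the 9781 models were called. Its dispersion was estimated from the same 2 libraries taken as replicates. The differences under test thus set the noise, so its few calls cannot decide whether the libraries differ. The smallest adjusted p was that of Ankrd13d-202, with 1 read in replicate 1 and 12 in replicate 2 (Fisher's exact test, p = 0.00345, adjusted p = 0.0607). Syt16-201 came next by p among the abundant members, with a log2 ratio of -1.02 (-1.81 to -0.28) of replicate 1 over replicate 2 (Fisher's exact test, adjusted p = 0.0722). The median log2 ratio over the 131 members was -0.22, beside -0.13 over all models tested, and 48 members were higher and 83 lower in replicate 1. With edgeR's TMM library sizes, which move every log2 ratio by 0.13, the members' median was -0.09 and the split was 58 higher and 73 lower.

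In share of the gene, 0 of 114 members were called by Fisher's exact test, against 0.327% of 4896 models (0.184% higher and 0.143% lower in replicate 1). At an unadjusted p under 0.05 there were 6 members. The smallest p was that of Tmem234-210, with 22.9% (15.7 to 31.5) in replicate 1 and 42.6% (32.4 to 53.2) in replicate 2 (Fisher's exact test, p = 0.00287, adjusted p = 0.354). The median absolute difference in share between the libraries was 2.76 percentage points over the 114 members. In each gene list, the members called in level and in share numbered 0.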

How the data were processed

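Both libraries of hippocampus RNA belong to the single group that the labels give. The authors deposited unnormalized read counts for each transcript model, 1 table for each library, which list a model from 1 read upward. TALON placed the long reads on models, per the file headers, and the deposited description files name the build mm10 and the annotation GENCODE M21. For the aligner, platform, filters and strand setting, the sources used here give no information.

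The type of each annotated model was read from the deposited annotations. Stop codons, exon junctions and sequences came from GENCODE M21. CPM used all reads of a library, and the share of a gene used its reads on annotated transcripts. Two-sided Fisher's exact tests were run on annotated models with 10 or more reads in sum, for level against the rest of the library, and for share where its gene had at least 20 such reads in each library, with Benjamini-Hochberg adjustment at 0.05 over all models tested (scipy 1.17.1). Alternatives used edgeR 4.0.16 (TMM sizes and the exact test) and DESeq2 1.42.0 size factors. The exact test used a common dispersion estimated from these same 2 libraries taken as replicates. The quasi-likelihood test of edgeR has no residual degrees of freedom with 1 library on each side.

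The text names the 20 members of highest mean CPM, the 10 of highest share in deeper genes, any member past a test and the 3 with most reads in each gene list. A member that this rule names is not reported here. The members, the gene lists and these rules were chosen with earlier results of these data known. Members with the smallest p, those at 50 bases or fewer and examples in shallow genes were chosen after their values were seen, as was the alternative that leaves out the leading gene of a list.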

Additional observations from a re-analysis of the deposited data

How the results depend on the processing

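With reads required in both libraries 372 members were left, and with at least 5 reads 244, and from a single library 526 to 565 were found. Their share of reads was 0.2002% of all reads and 0.315% of the annotated reads of protein-coding genes, and 0.286% to 0.301% in single libraries. The median share of the gene was 1.78% over reads of every class, 0.945% in genes with at least 100 annotated reads in each library and 6.06% with no minimum, and 3.39% to 3.80% in single libraries, where members at 0 drop out. In genes with at least 100 reads, 3 members held over 50% of the gene. A last junction over 50 bases past the stop was found in 243 of the 244 members with at least 5 reads and in 523 to 561 in single libraries, and 699 of 719 exceeded 55 bases. The alternatives of both tests called 0 members each. For edgeR's exact test few calls were favoured in advance, because the libraries compared also set its dispersion. For level 5 (TMM), 7 (DESeq2 size factors), 10 (no minimum of reads), 5 (at least 20 reads) and 3 (edgeR's exact test) had an unadjusted p under 0.05. For share these were 7 (all reads of the gene), 8 (no minimum) and 3 (genes with at least 100 reads). Over all models, the level alternatives called 449 of 9781 (TMM), 495 of 9781 (DESeq2 size factors) and 22 of 9781 (edgeR's exact test). With no minimum of reads 380 of 24612 were called, and with at least 20 reads 534 of 7241. The share alternatives called 102 of 6306 (all reads of the gene), 14 of 8817 (no minimum) and 22 of 2037 (genes with at least 100 reads). Leaving out a library leaves no test between libraries. Of 42 named members, 20 had a share that moved by more than the spread between replicates when reads of every class were the denominator. No paired analysis was possible because there is 1 group and no second group to pair with. Depth limits most members: a single read is 0.752 or 0.732 CPM, and 246 members rest on 1 read.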

Other observations

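A neighbouring type in the annotation, non-stop decay, covers transcripts that run to their end without a stop codon. Of 26 such transcripts, 6 had reads, 69 in replicate 1 and 37 in replicate 2, and their share of the annotated reads differed between the libraries (two-sided Fisher's exact test, unadjusted p = 0.000427). Most of these reads lay on Zfr-203, from the gene of a zinc finger RNA-binding protein (chromosome 15, 12117831 to 12185683), with 48 reads in replicate 1 and 20 in replicate 2. Its level passed the test over all annotated models (Fisher's exact test, adjusted p = 0.0160), while its share of the gene, 81.4% and 60.6%, did not (adjusted p = 0.903). Tatdn1-209 had 11 and 9 reads and Zbtb38-203 had 7 and 4. These transcripts were chosen after their values were seen.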
